A study of Bos taurus with 9 samples.

Results

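The genes described here are the galectins LGALS1, LGALS3, LGALS8 and LGALS9, the galectin-3-binding protein LGALS3BP, the cathepsins CTSB, CTSK, CTSL and CTSS, and their inhibitor cystatin C (CST3). They were chosen by symbol, with earlier results of these data known, and all 10 were present among the 17162 genes of the FPKM table. The values came from primary bovine endometrial epithelial cells (BEND), grown out of Holstein uteri and passaged, in 9 libraries, 3 for each group. CON cells were untreated, GA cells received E2 (1 nM) and P4 (100 nM), and GB cells received the same hormones for 12 h followed by IFNT (100 ng/mL) for 12 h. All cells were labelled WT and grown in DMEM/F12 with serum. When CON and GA cells were harvested is not given in the sources used here, so time in culture and IFNT cannot be told apart in the comparisons with GB. Whether the replicate dishes came from separate cows is not given either, and p-values then measure the spread between these dishes.

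Galectins are lectins that bind beta-galactoside sugars on cell-surface and matrix glycoproteins, and they are secreted without a signal peptide. Cathepsins B, K, L and S are cysteine proteases of the lysosome that can also be released to cut matrix, and cystatin C is a secreted protein that blocks their active sites. In the ruminant uterus, both families are known as components of the fluid and surface that the conceptus meets before implantation, and IFNT is the type I interferon through which the conceptus is recognised.

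The cells were labelled as epithelial, but their libraries held almost no RNA of epithelial markers. Of 14 epithelial markers 11 were in the table, each with a mean under 0.5 FPKM, and their summed level was 0.800 to 1.77 FPKM in CON, from 1.63 to 1.72 in GA and from 1.53 to 2.47 in GB. KRT18, the keratin with which the cultures were stained, had a mean of 0.361 FPKM. The 12 stromal fibroblast markers were all present and summed to 17260 to 17820 FPKM in CON, from 17430 to 17840 in GA and from 15610 to 15710 in GB, the GB libraries lying below the others. VIM, with a mean of 8539 FPKM, made up much of that sum. At an adjusted p under 0.05, 1 of the 12 was higher and 6 lower in GB vs. CON. Over all tested genes, 16.2% were higher and 17.3% lower. PDGFRA, the marker that was higher, was at 192 to 201 FPKM in GB and 144 to 158 in CON. DCN and LUM lay above CON in all GB libraries without passing (adjusted p = 0.0802 and 0.0906, limma), and GA lay above GB for both. DCN was at 1056 to 1187 FPKM in GA and 922 to 960 in GB, and LUM at 809 to 847 and 725 to 774. In GB vs. GA 1 of the 12 was higher and 8 lower at an adjusted p under 0.05, beside 9.87% and 19.2% of all tested genes. The levels below are those of the cultures as sequenced, and in bulk RNA fewer cells of a type and less RNA per cell cannot be told apart. The 9 libraries summed to between 1395622 and 1442723 FPKM. Pearson's r of log2(FPKM + 0.5) within a group was 0.989 to 0.991, and by this measure no library stood apart from its group. For single genes CON library 2 did differ from the other CON libraries. It was higher for VIM (9570 against 8658 and 9017 FPKM) and LGALS1, and lower for LGALS3 (2786 against 2996 and 3153). Endothelial markers, 6 of 6 in the table, summed to 2.44 to 4.10 FPKM in CON, from 1.99 to 4.09 in GA and from 4.88 to 6.16 in GB. The treatment was visible in the libraries, since all 20 tested genes of a list of classical interferon-stimulated genes were called higher in GB against either group, with log2FC from 1.85 to 10.4 against CON, and 0 were called in GA vs. CON. Of 7 tested steroid response genes, 1 was called higher in GA vs. CON, 2 in GB vs. CON and 0 when GB was set against GA. Beside both lists, 0.0318% of all tested genes were called higher in GA vs. CON. For GB the share of all tested genes called higher was 2.94% against CON and 2.66% against GA.

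LGALS9, CTSS and LGALS3BP were strongly higher in GB than in both other groups, and LGALS8 was slightly higher. Levels of LGALS1, LGALS3, CST3 and CTSB were lower in GB by 11.7% to 18.7% against CON, and CTSL and CTSK did not pass the test. Differences were tested with limma on log2(FPKM + 0.5) over the 12578 genes with a mean of at least 0.5 FPKM, which included all 10 genes. A DEG had |log2FC| above 1 at an adjusted p (Benjamini-Hochberg) under 0.05, and genes that passed the adjusted p alone are given as a looser count. In GB vs. CON, 3 of the 10 genes were DEGs, all higher, against 2.94% of all tested genes called higher and 1.07% called lower. In GB vs. GA the same 3 genes were DEGs, against 2.66% of tested genes called higher and 0.978% called lower. Because the 10 genes were chosen with earlier results known, counts among them do not test their families. At an adjusted p under 0.05, 4 genes were higher and 4 lower in GB vs. CON, where 16.2% of tested genes were higher and 17.3% lower. The looser count in GB vs. GA was again 4 higher and 4 lower, beside 9.87% and 19.2% of tested genes. GA vs. CON had 0 DEGs among the 10 genes and 0 at an adjusted p under 0.05, where 0.0716% of all tested genes were DEGs and 0.453% passed the adjusted p in either direction. The smallest unadjusted p of the 10 in GA vs. CON was 0.0695, that of CTSS, so 0 had an unadjusted p under 0.05. Both comparisons with GB share the GB libraries, so their values are given side by side and are not independent. For 1 gene, exact permutation of 3 against 3 libraries gives a p of 0.1 at best, and the p-values therefore come from the limma fit.

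**Figure D1:**
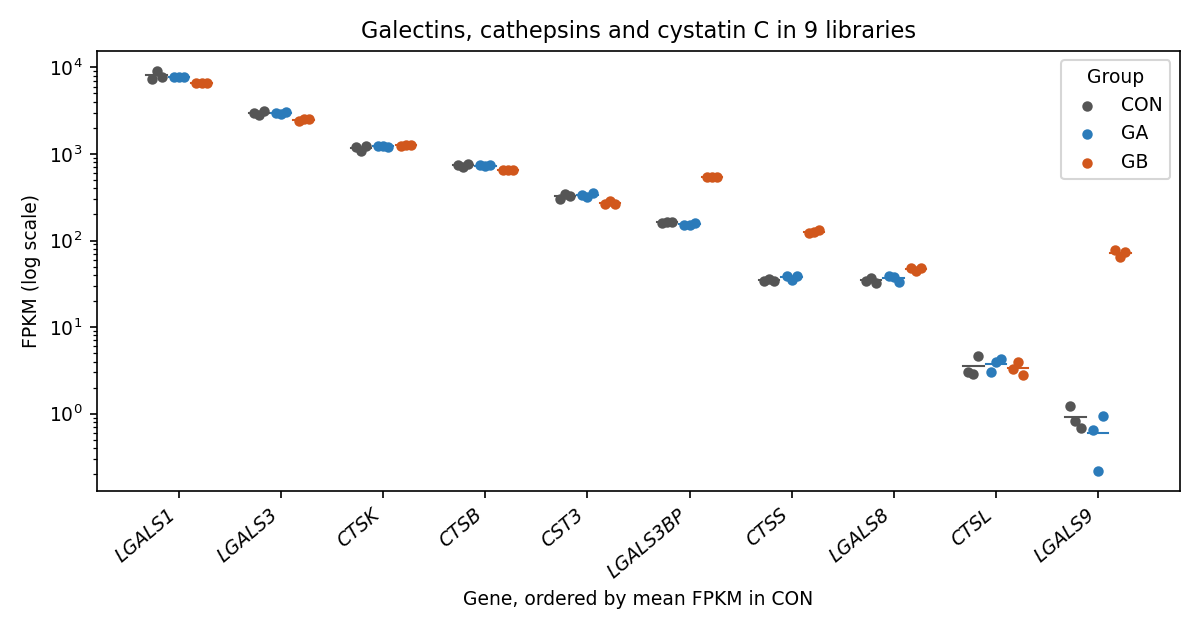
FPKM of the 10 genes (log scale) in each library, with genes ordered by their mean in CON; points are libraries, short lines are group means and colours are groups. LGALS9 lay between 0.220 and 1.21 FPKM in CON and GA and between 65.1 and 76.8 in GB, and the GB points of LGALS3BP and CTSS also lay above all others.

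LGALS9 encodes galectin-9, a galectin with a pair of carbohydrate-binding domains that is known as an interferon-responsive gene and as a ligand of the checkpoint receptor TIM-3. It was at 1.21, 0.830 and 0.690 FPKM in the CON libraries, at 0.640, 0.220 and 0.950 in GA, and at 76.8, 65.1 and 73.5 in GB. The CON and GA libraries overlapped near the bottom of the range, and the GB libraries lay far above them. The mean rose from a CON level of 0.910 ± 0.269 FPKM to 71.8 ± 6.02 in GB (SD, n = 3), which gave a log2FC of 5.69 (SE 0.24, limma, adjusted p = 1.29e-07). Against GA the log2FC was 6.09 (adjusted p = 8.06e-08, same test). The ratio of the means was 78.9 against CON and 119 against GA. The log2 scale with a pseudocount understates so large a rise from a low level, while the ratio itself rests on denominators under 1 FPKM. By log2FC it ranked 36 from the highest of the 12578 tested genes against CON and 30 against GA, where CTSS ranked 205 and 209 and LGALS3BP 221 and 193. In GA vs. CON its log2FC was −0.40 (95% confidence interval −0.94 to 0.15, adjusted p = 0.388, limma), so no change beyond the spread was seen with the hormones alone. HAVCR2, the gene of TIM-3, singled out after its values were seen, was at 0.600 to 2.21 FPKM over the 9 libraries and did not pass in GB vs. CON (0.29, adjusted p = 0.491).

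LGALS3BP encodes a secreted, heavily glycosylated protein that binds galectin-3 and other galectins, and it is known as an interferon-inducible gene. Its FPKM was 158, 165 and 162 in CON, 150, 152 and 160 in GA, and 539, 540 and 544 in GB. The GB libraries differed from each other by less than 1 part in 100, and lay above 3 times the level of every other library. The mean rose from a CON level of 162 ± 3.74 FPKM to 541 ± 2.62 in GB (SD, n = 3), a 3.34-fold rise at a log2FC of 1.74 (SE 0.039, limma, adjusted p = 1.13e-09). The log2FC against GA was 1.81 (adjusted p = 9.11e-10, same test). In absolute FPKM this was the largest gain among the 10 genes, and in GB it carried LGALS3BP above CST3 in the order of levels, whereas CST3 was above it in CON and GA.

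LGALS8 encodes galectin-8, another galectin with a pair of carbohydrate-binding domains, known to recognise damaged lysosomes and endosomes. Its FPKM was 34.1, 37.4 and 32.3 in CON, 39.3, 38.4 and 33.4 in GA, and 47.8, 44.8 and 48.0 in GB. The groups CON and GA overlapped, and the lowest GB library was above the highest of both. The mean rose 1.35-fold against CON, from 34.6 ± 2.55 to 46.9 ± 1.75 FPKM (SD, n = 3), with a log2FC of 0.43 (SE 0.077, adjusted p = 0.00235, limma) and of 0.34 against GA (adjusted p = 0.00976). The rise stayed under the fold threshold of a DEG.

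LGALS1 and LGALS3 encode galectin-1 and galectin-3, the most studied of the family, which bind laminin, integrins and other glycoproteins and have been linked to trophoblast adhesion and immune tolerance. LGALS1 was the most abundant of the 10 genes and ranked 8 of all 17162 genes by mean FPKM over the 9 libraries. LGALS1 stood at 7390, 9142 and 7812 FPKM in CON, at 7740, 7696 and 7695 in GA, and at 6583, 6634 and 6580 in GB. The second CON library was far above the other two, and all GB libraries were below every CON and GA library. Its mean fell by 18.7% in GB vs. CON, with a log2FC of −0.29 (SE 0.068, adjusted p = 0.00998, limma). Without the second CON library the log2FC was −0.20 (adjusted p = 0.00209), so the fall was smaller and still passed. Against GA the log2FC was −0.22 (adjusted p = 0.0355), a call that rests on the processing and on the libraries in the fit. It no longer passed after scaling each library to the same sum (−0.20, adjusted p = 0.0617) or with median-of-ratios factors (−0.15, adjusted p = 0.194). Quantile normalization moved it the other way, to −0.44 (adjusted p = 1.37e-06), and gave −0.44 against CON too (adjusted p = 1.33e-06). That setting replaces each value by one fixed by its rank, and in GA vs. CON the log2FC of LGALS1 became −1.8e-15. Its p-values therefore do not measure the spread of LGALS1 in FPKM. The call against GA was also lost with no filter (adjusted p = 0.0941), with no variance trend (adjusted p = 0.063) and when any GA or GB library was left out (adjusted p 0.0801 to 0.0895, limma). At the same log2FC of −0.22, the adjusted p was 0.000395 with GA and GB fitted alone. Without the second CON library it was 0.000664 (limma).

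LGALS3 was at 2996, 2786 and 3153 FPKM in CON, at 2992, 2891 and 3037 in GA, and at 2379, 2500 and 2505 in GB. CON and GA overlapped, and the GB libraries were all below both. The mean fell by 17.4% against CON, from 2978 ± 184 to 2461 ± 71.4 FPKM (SD, n = 3), with a log2FC of −0.27 (SE 0.050, adjusted p = 0.00289, limma), and by 17.2% against GA (log2FC −0.27, adjusted p = 0.00343). Both held under all 19 alternatives of scaling, filter, pseudocount, model and libraries. The ratio of LGALS1 to LGALS3 FPKM was 2.74 ± 0.468 in CON, 2.59 ± 0.0645 in GA and 2.68 ± 0.0744 in GB (SD, n = 3), so these abundant galectins were lower by similar shares. Falls of this size were common in these libraries, since 18.3% of tested genes had a lower log2FC than LGALS1 in GB vs. CON and 19.8% a lower one than LGALS3.

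**Figure D2:**
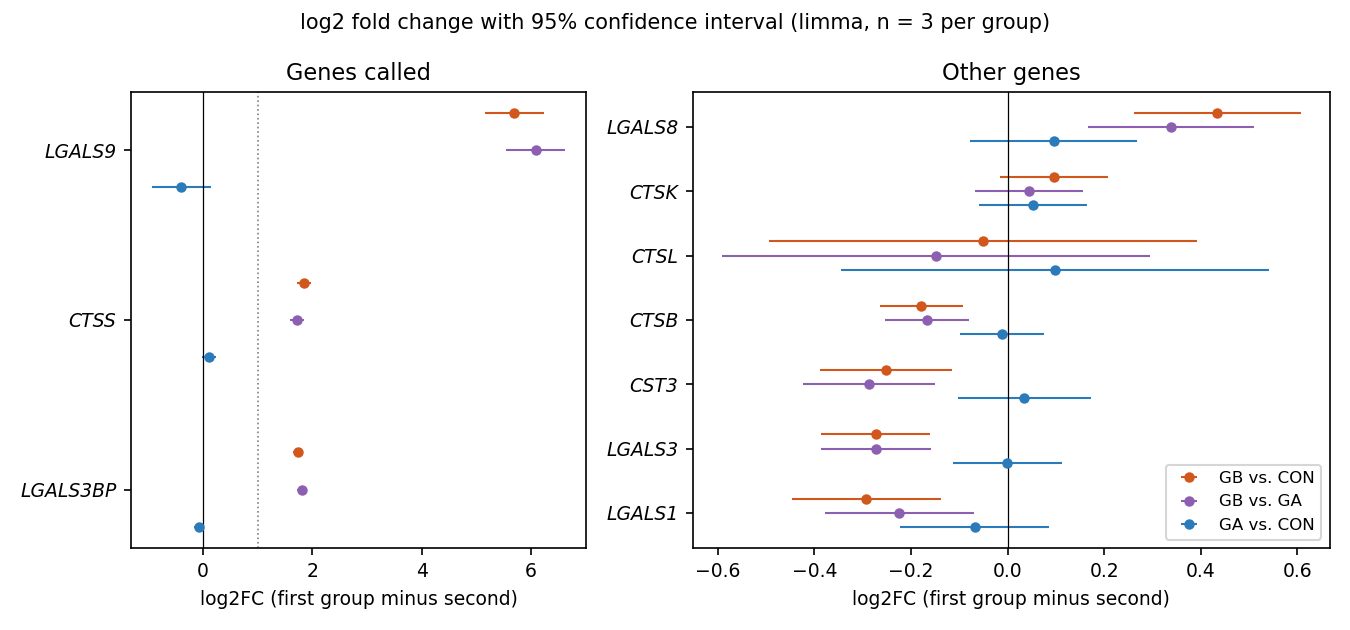
The log2FC of each gene (x axis) in the 3 comparisons, with bars for the 95% confidence interval of the limma fit (n = 3 per group); the left panel holds the genes called as DEGs, with a dotted line at a log2FC of 1, and the right panel the others on a narrower axis. The intervals of GA vs. CON include 0 for all 10 genes, and those of CTSL and CTSK include 0 in every comparison.

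CTSS encodes cathepsin S, a cysteine protease that stays active at neutral pH and trims the invariant chain of MHC class II in antigen-presenting cells. It was at 34.1, 36.1 and 33.9 FPKM in CON, at 39.3, 35.2 and 38.4 in GA, and at 122, 124 and 131 in GB. The CON and GA libraries overlapped, and the GB libraries lay at above 3 times the highest of them. The mean rose 3.63-fold, from a CON mean of 34.7 ± 1.24 FPKM to 126 ± 4.76 in GB (SD, n = 3), at a log2FC of 1.84 (SE 0.057, limma, adjusted p = 1.22e-08), and the log2FC against GA was 1.73 (adjusted p = 1.92e-08, same test). CTSS and LGALS8 overlapped in level in CON and GA, and in GB they were apart. CTSS is known to be high in macrophages, and 2 of 6 tested macrophage and dendritic cell markers were called higher in GB with it. Over all tested genes, 2.94% were called higher in GB vs. CON. Of 16 macrophage and dendritic cell markers 13 were in the table, and their summed level was 31.2 to 32.1 FPKM in CON, from 30.6 to 32.5 in GA and from 41.0 to 48.6 in GB. CD163 (log2FC 1.79 in GB vs. CON) and FCGR1A (1.87) were called higher. CD14, with the highest mean of these markers (20.2 FPKM), was at 19.1 to 20.8 in CON and 16.7 to 23.3 in GB. CD68 was at 3.13 to 3.95 FPKM in CON and 3.18 to 4.43 in GB. CSF1R stayed at 0.240 to 0.600 FPKM, and ITGAM was at 0 in 7 of the 9 libraries with a highest value of 0.05. C1QB and C1QC were each at 0 in 8 of the 9 libraries. PTPRC, C1QA and CD86 were not analysed here. The part of such cells in the CTSS rise was not tested.

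CTSK encodes cathepsin K, the collagen-cutting cathepsin best known from bone-resorbing osteoclasts and also made by fibroblasts. It was the most abundant cathepsin, at 1201, 1090 and 1247 FPKM in CON, 1234, 1226 and 1204 in GA, and 1235, 1283 and 1259 in GB. The lowest GB value and the highest GA value differed by less than 1 FPKM, and the third CON library was above the lowest GB library. Its log2FC was 0.097 in GB vs. CON (95% confidence interval −0.016 to 0.21, adjusted p = 0.167, limma) and 0.044 in GB vs. GA (−0.068 to 0.16, adjusted p = 0.546), intervals that leave room for a rise of at most 0.21 on the log2 scale. Its coefficient of variation over the 9 libraries, 4.51%, was the lowest of the 10 genes. The osteoclast receptor genes CALCR and TNFRSF11A, too low to be tested, were at 0 to 0.120 and 0.170 to 0.760 FPKM. Of 6 osteoclast markers 4 were tested, CTSK among them. ACP5, at 17.4 to 28.8 FPKM over the 9 libraries, was the 1 that passed in GB vs. CON, lower (log2FC −0.47, adjusted p = 0.00231, limma). Over all tested genes 17.3% were lower at an adjusted p under 0.05. In the other comparisons 0 of the 4 passed. OSCAR was at 0.280 to 1.45 FPKM and MMP9 at 1.14 to 3.23. In the RefSeq table of the later assembly ARS-UCD2.0, CTSK and CTSS lie next to each other with a single LOC locus between them, so the pair holds a gene that rose and a gene that did not pass the test side by side. The ratio of CTSS to CTSK FPKM was 0.0295 ± 0.00315 in CON, 0.0308 ± 0.00181 in GA and 0.0998 ± 0.00387 in GB (SD, n = 3).

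CTSB encodes cathepsin B, a lysosomal protease that acts both as an endopeptidase and on the ends of peptides. Its FPKM was 755, 707 and 762 in CON, 745, 724 and 736 in GA, and 656, 659 and 648 in GB. The groups CON and GA overlapped, and each GB library was below both. The mean fell by 11.7% against CON, from 741 ± 30.1 to 655 ± 6.07 FPKM (SD, n = 3), with a log2FC of −0.18 (SE 0.038, adjusted p = 0.00652, limma). Against GA the log2FC was −0.17 (adjusted p = 0.0104), and it no longer passed with median-of-ratios factors (−0.092, adjusted p = 0.0836) or after quantile normalization (−0.10, adjusted p = 0.0554).

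CTSL was the lowest of the cathepsins chosen, at 3.03, 2.85 and 4.66 FPKM in CON, 3.01, 3.93 and 4.31 in GA, and 3.24, 3.91 and 2.83 in GB. All groups overlapped, and the log2FC of −0.051 in GB vs. CON had a 95% confidence interval of −0.49 to 0.39 (adjusted p = 0.871, limma), so a change of up to about that size was not detectable at this level. The deposited description of this row is cathepsin L1. A second row, CTSV, is described as cathepsin L2, and the RefSeq table gives CTSL, CTSL1 and CTSL2 as older symbols of CTSV. A name of cathepsin L in older bovine work can therefore point to either gene, and how the counting split reads between these paralogues is not given in the sources used here. CTSV, named here after its values were seen, was at 74.4, 83.1 and 76.2 FPKM in CON, 87.7, 89.4 and 85.9 in GA, and 70.7, 71.4 and 73.2 in GB. It was 23.4 ± 6.48 times CTSL in CON (SD, n = 3). The GA libraries were above both other groups, though GA vs. CON did not pass (log2FC 0.17, adjusted p = 0.133, limma), and CTSV was lower in GB vs. GA (−0.29, adjusted p = 0.00248) while GB vs. CON did not pass (−0.12, adjusted p = 0.102). After quantile normalization the fall of CTSV in GB vs. CON passed (−0.18, adjusted p = 0.0482).

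CST3 encodes cystatin C, the secreted inhibitor that binds the cysteine cathepsins tightly. It was at 305, 348 and 326 FPKM in CON, at 331, 319 and 353 in GA, and at 267, 289 and 266 in GB. The CON and GA ranges overlapped, and the highest GB library was below the lowest of both. The mean fell by 16.1% against CON, from 327 ± 21.5 to 274 ± 13.1 FPKM (SD, n = 3), with a log2FC of −0.25 (SE 0.061, adjusted p = 0.0118, limma), and by 18.1% against GA (log2FC −0.29, adjusted p = 0.00724). Both passed under all 19 alternatives, with adjusted p up to 0.0433 in GB vs. CON.

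**Figure D3:**
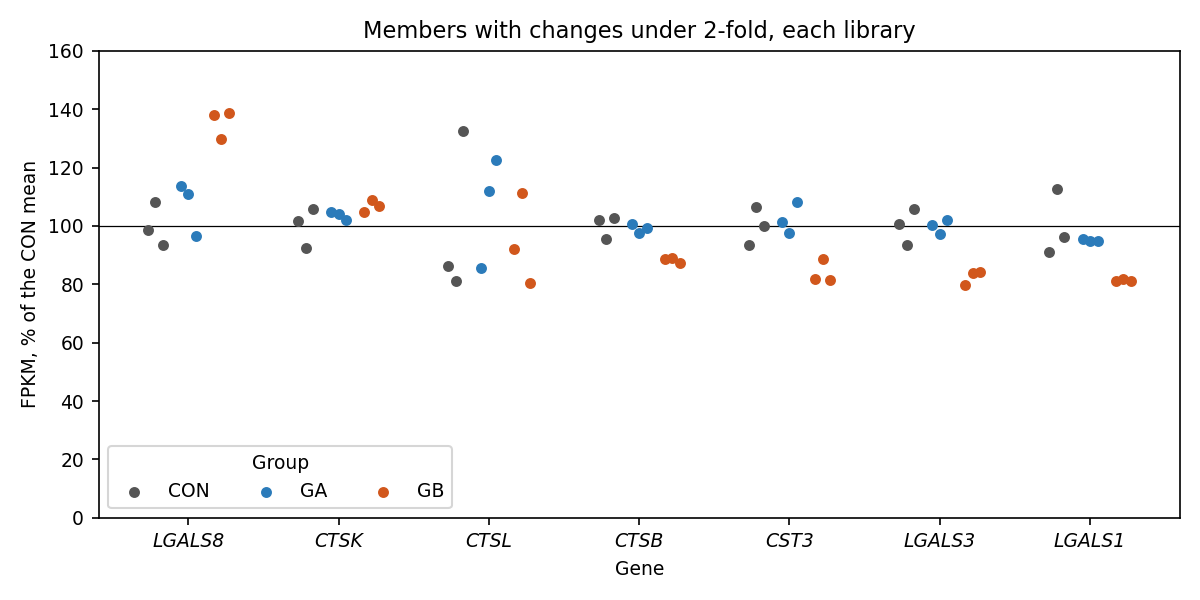
FPKM of each library as a percentage of the CON mean of the same gene, for the 7 genes that were not DEGs; points are libraries and colours are groups. The GB points of LGALS1, LGALS3, CST3 and CTSB lie below all CON and GA points, those of LGALS8 above, and those of CTSL overlap both groups.

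Set against their inhibitor, the cathepsins moved apart. The FPKM ratio of CTSS to CST3 was 0.112, 0.104 and 0.104 in the CON libraries, 0.119, 0.110 and 0.109 in GA, and 0.457, 0.428 and 0.494 in GB. CTSK over CST3 was 3.63 ± 0.435 in CON, 3.66 ± 0.225 in GA and 4.60 ± 0.152 in GB (SD, n = 3), with all GB libraries above the others. CTSB over CST3 overlapped between the groups, at 2.28 ± 0.227 in CON, 2.2 ± 0.103 in GA and 2.39 ± 0.0960 in GB (SD, n = 3), since both genes fell. CTSL over CST3 also overlapped, at 0.0108 ± 0.00314 in CON, 0.0112 ± 0.00183 in GA and 0.0121 ± 0.00143 in GB. These are ratios of transcripts, given without a test, and hold no measure of protein or of enzyme activity. Among the lectins, LGALS9 over LGALS3BP was 0.00565 ± 0.00179 in CON, 0.00387 ± 0.00226 in GA and 0.133 ± 0.0111 in GB (SD, n = 3), so galectin-9 transcripts rose more than those of the binding protein and still remained the fewer.

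**Figure D4:**
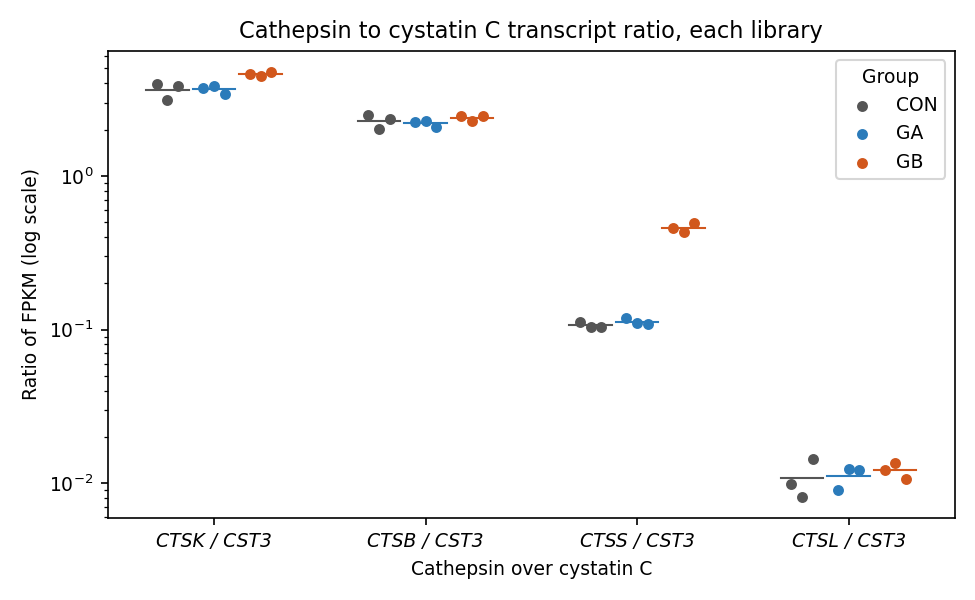
Ratio of the FPKM of each cathepsin to that of CST3 (log scale) in each library; points are libraries, short lines are group means and colours are groups. CTSS over CST3 lies between 0.104 and 0.119 in CON and GA and between 0.428 and 0.494 in GB, while the groups overlap for CTSB and CTSL.

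By level per exon length, the order in CON was LGALS1, LGALS3, CTSK, CTSB, CST3, LGALS3BP, CTSS, LGALS8, CTSL and LGALS9, and only the neighbours CTSS and LGALS8 overlapped in their libraries. GA had the same order with the same overlapping pair. In GB the order after CTSB was LGALS3BP, CST3, CTSS, LGALS9, LGALS8 and CTSL, with no overlap between neighbours. LGALS9 thus moved from the last place to above LGALS8, and CTSL took the last place. In the moderated F test over the 3 groups, CTSL (adjusted p = 0.798) and CTSK (adjusted p = 0.302, limma) did not differ beyond the spread, and the other 8 passed with adjusted p of 0.0201 or less. The median log2FC of the 10 genes was 0.023 for GB vs. CON, −0.052 for GB vs. GA and 0.017 in GA vs. CON, beside −0.016, −0.075 and 0.061 over all tested genes.

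Of 13 further galectin genes 4 were in the table and 2 were tested. LGALS7 and LGALS7B were each above 0 in 1 library only, and LGALS4 lay between 0.250 and 1.45 FPKM with no passing test. LGALSL, which encodes a galectin-related protein, fell in GB vs. GA (log2FC −1.08, adjusted p = 0.0241, limma), from 4.01 ± 0.373 to 1.76 ± 0.835 FPKM (SD, n = 3). It was a DEG there, where 0.978% of all tested genes were called lower. It fell short of the fold threshold with a pseudocount of 1 (−0.91), after scaling to the same sum (−0.97) and without GB library 2 (−0.72). In these settings the adjusted p still passed (0.0201, 0.0271 and 0.0418, limma). The adjusted p did not pass without GA library 2 (0.0657) or GA library 3 (0.0741), and LGALSL did not pass in GB vs. CON (−0.50, adjusted p = 0.228).

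Of 12 further lysosomal proteases, cathepsins and the legumain gene LGMN, 10 were tested. Their median log2FC in GB was −0.12 against CON and −0.14 against GA. At an adjusted p under 0.05, 1 was higher and 3 lower against CON, beside 16.2% and 17.3% of all tested genes. Against GA these counts were 0 and 3, beside 9.87% and 19.2%. In this list 1 gene was a DEG, where 1.07% of all tested genes were called lower against CON and 0.978% against GA. CTSW, known as a cathepsin of cytotoxic lymphocytes, was the single DEG, lower in both, from 1.22 ± 0.318 FPKM (SD, n = 3) in CON and 1.32 ± 0.353 in GA to 0.287 ± 0.162 in GB (log2FC −1.13, adjusted p = 0.00655, and −1.21, adjusted p = 0.00552). With a pseudocount of 0.1 its log2FC was −1.83 and −1.93, and its DEG call was lost with a pseudocount of 1 in both comparisons (−0.78 and −0.84), and in GB vs. CON also after scaling to the same sum (−0.96) and without CON library 1 (−0.99) or GB library 1 (−0.99). Lymphocyte markers summed to 5.51 to 8.96 FPKM in CON, from 5.42 to 7.86 in GA and from 3.33 to 6.57 in GB over the 6 of 10 that were in the table, most of it CD8A, with CD3D and CD4 each at 0 in 8 libraries; their part in the CTSW fall was not tested. The 3 most abundant relatives were CTSD, CTSC and CTSZ. CTSD, the aspartic protease of the lysosome, fell from a CON level of 659 ± 71.8 FPKM to 527 ± 3.44 in GB (log2FC −0.32, adjusted p = 0.00552), and in GB vs. GA it passed (−0.24, adjusted p = 0.0254) but not with median-of-ratios factors (−0.16, adjusted p = 0.158), after quantile normalization (−0.17, adjusted p = 0.0959) or without any single GA or GB library (adjusted p 0.0592 to 0.0703). CTSZ fell in GB vs. CON (−0.26, adjusted p = 0.00737) and did not pass in GB vs. GA (−0.10, adjusted p = 0.219). CTSC was just past the threshold in GB vs. CON (0.15, adjusted p = 0.0467) and lost it without any single library of GA, of GB, or CON library 1 or 2 (adjusted p 0.0647 to 0.134). That call was also lost with no filter (adjusted p = 0.0626), no variance trend (0.0871) and a fit of the 2 groups alone (0.0977), and against GA it passed only with median-of-ratios factors (0.13, adjusted p = 0.0474), having been 0.054 (adjusted p = 0.457).

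The abundant cystatins CSTB and CST6 were, like CST3, lower in GB. CSTB, a cytosolic stefin that the deposited description calls stefin-C, fell from a CON mean of 3156 ± 241 FPKM to 2433 ± 202 in GB (SD, n = 3) (log2FC −0.38, adjusted p = 0.00515, limma) and by 0.32 on the log2 scale against GA (adjusted p = 0.0133), the latter lost with median-of-ratios factors (−0.24, adjusted p = 0.0707) and without GA library 1 (adjusted p = 0.0511). CST6, cystatin M, fell from 290 ± 24.7 to 236 ± 17.2 FPKM (log2FC −0.30, adjusted p = 0.013), and by 0.36 against GA (adjusted p = 0.00579). SERPINB1, a serpin of granule proteases, was higher in GB vs. CON (0.21, adjusted p = 0.00854), not after quantile normalization (0.12, adjusted p = 0.0725), and did not pass in GB vs. GA (0.078, adjusted p = 0.265), though it did with median-of-ratios factors (0.15, adjusted p = 0.0342). In this list of 20 genes 5 were tested, 0 were DEGs, and 1 was higher and 2 lower at an adjusted p under 0.05 in GB vs. CON, with 0 and 2 in GB vs. GA. Over all tested genes 16.2% were higher and 17.3% lower in GB vs. CON, and 9.87% and 19.2% in GB vs. GA.

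**Figure D5:**
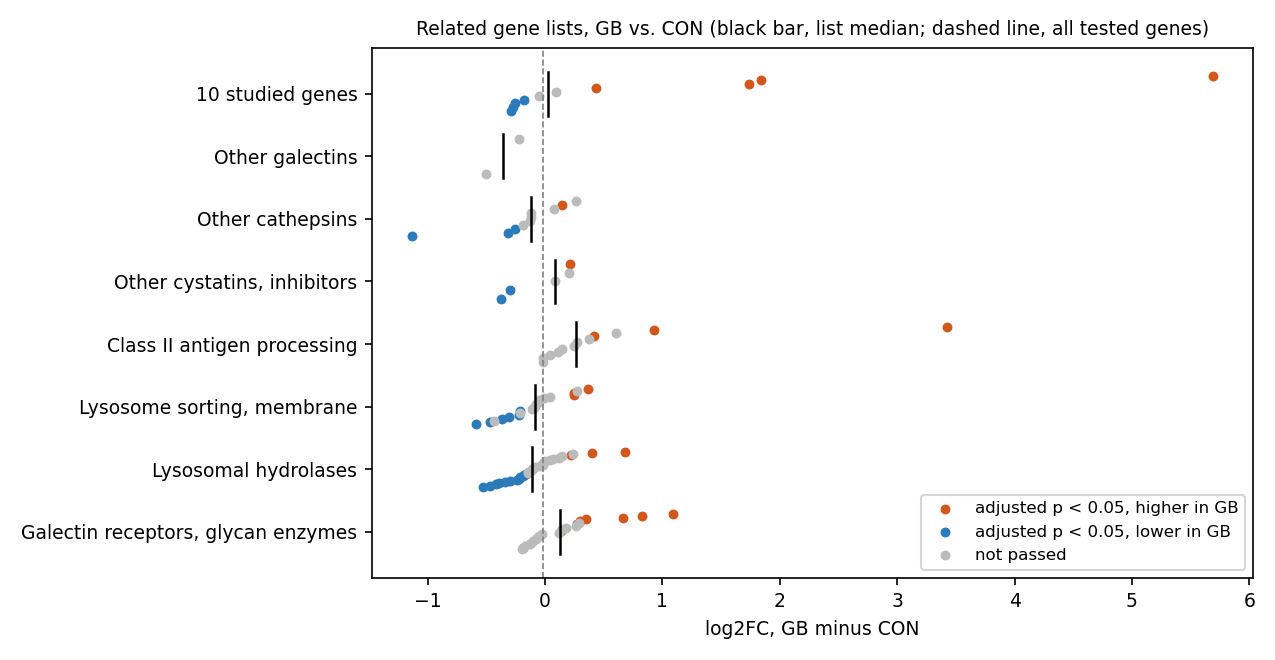
The log2FC of GB vs. CON (x axis) of every tested gene in 8 lists (rows); points are genes, coloured by whether they passed an adjusted p under 0.05 and in which direction, black bars are list medians and the dashed line is the median of all tested genes (−0.016). The 3 called galectin and cathepsin genes lie at 1.74 to 5.69, and the lysosomal lists lie within −0.58 to 0.68.

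Genes of MHC class II antigen processing, in which CTSS acts, were mostly low. Of 21 genes 12 were tested, 1 was a DEG against CON and 2 against GA, all higher, with list medians of 0.26 and 0.16. Over all tested genes 2.94% were called higher against CON and 2.66% against GA. BOLA-DMB, a chain of the peptide-loading DM molecule, rose from a CON mean of 0.707 ± 0.257 FPKM to 12.7 ± 3.74 in GB (SD, n = 3) (log2FC 3.43, adjusted p = 1.63e-05, limma). RFX5, a regulator of class II promoters, rose from 12.1 ± 1.62 to 23.4 ± 0.682 FPKM (0.93 against CON, adjusted p = 6.34e-05, and 1.03 against GA, adjusted p = 3.45e-05), near the fold threshold, and its log2FC against CON was 1.02 without CON library 3. IFI30, a thiol reductase of the lysosome that unfolds antigens, rose 1.34-fold against CON (0.42, adjusted p = 0.000473). CD74, the invariant chain that CTSS cuts, was at 1.39 to 3.38 FPKM over the 9 libraries (log2FC 0.15, adjusted p = 0.7), and the class II activator CIITA was at 0 to 0.0600. IFI30, CD74 and CIITA were singled out after their values were seen.

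The lysosome lists gave 0 DEGs in the limma fit. Beside the counts that follow stand 16.2% of all tested genes higher and 17.3% lower in GB vs. CON at an adjusted p under 0.05, and 9.87% and 19.2% against GA. Of 20 tested genes for sorting and membrane, 3 were higher and 6 lower at an adjusted p under 0.05 in GB vs. CON, and 3 and 6 in GB vs. GA, with medians of −0.089 and −0.12. Of 31 tested hydrolases, 3 were higher and 12 lower in GB vs. CON and 2 and 13 in GB vs. GA, with medians of −0.11 and −0.16, the range in GB vs. CON being −0.52 to 0.68. Some of these were picked after their values were seen, for known roles with cathepsins, with galectins or in the lysosome membrane. M6PR, the smaller mannose 6-phosphate receptor that delivers cathepsins to lysosomes, rose 1.19-fold against CON (log2FC 0.25, adjusted p = 0.00174, limma), and IGF2R, the larger one, fell by 0.37 on the log2 scale (adjusted p = 0.00021). LAMP2, a membrane protein of lysosomes, rose by 0.37 (adjusted p = 0.000747) while LAMP1, its relative and a known galectin ligand, fell by 0.21 (adjusted p = 0.00421). NEU1, a sialidase that removes caps which hinder galectin binding, fell by 0.52 (adjusted p = 0.000552).

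Partners of galectins and enzymes that build their glycans gave 1 DEG, higher, among 22 tested genes in both GB comparisons. Over all tested genes 2.94% were called higher against CON and 2.66% against GA. The list medians were 0.13 against CON and 0.035 against GA. At an adjusted p under 0.05, 7 were higher and 1 lower in GB vs. CON, where 16.2% and 17.3% of all tested genes were, and 5 higher and 2 lower in GB vs. GA, where 9.87% and 19.2% were. The DEG was MGAT5, the enzyme that adds the branch on which galectin-binding chains are extended, which rose from a CON mean of 1.90 ± 0.530 FPKM to 4.56 ± 0.728 in GB (SD, n = 3) (log2FC 1.09, adjusted p = 0.0024, and 1.10 against GA, adjusted p = 0.00267, limma). It fell under the fold threshold with a pseudocount of 1 (0.95 and 0.96), without CON library 2 against CON (0.92) and without GA library 2 against GA (0.996), with an adjusted p still under 0.05. MGAT2, an earlier enzyme of the same branching path named after its values were seen, rose 1.77-fold against CON (0.83, adjusted p = 0.000233).

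Genes whose profile over the 9 libraries was most like that of a called gene were found by the root mean square (RMS) difference of log2(FPKM + 0.5) after centring each gene on its mean. Closest to LGALS9 were RTP4 (RMS difference 0.269), DHX58 (0.32) and IFIT3 (0.345). RTP4, a chaperone of receptor trafficking, went from a mean of 1.74 FPKM in CON and 1.3 in GA to 159 in GB, and DHX58, a cytosolic RNA sensor, from 2.26 and 2.13 to 163. LGALS3BP was nearest to ACSL5 (0.0578), TRIM16 (0.0593) and STAT2 (0.074). CTSS was nearest to ACSL5 (0.066), SERPING1 (0.0751) and TAP2 (0.0797). ACSL5, a long-chain acyl-CoA synthetase, had means of 21.8 FPKM in CON, 21.99 in GA and 76.9 in GB, standing first for both genes. STAT2 is a subunit of the interferon-activated factor ISGF3, SERPING1 is the inhibitor of complement C1, and TAP2 is a chain of the peptide transporter of MHC class I. The likeness is a description over 9 libraries that share 1 large step between GB and the others.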

How the data were processed

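Directional mRNA libraries were made from total RNA of BEND in 3 groups, CON, GA and GB, with 3 libraries each. Per the labels and the study's methods, the authors trimmed reads with fastp 0.21.0, removed ribosomal reads with Bowtie2 2.33, aligned the rest to ARS-UCD1.2 with HISAT2 2.2.1 and quantified genes with RSEM 1.3.3. The values deposited were FPKM, rounded to 2 decimals, so they are already scaled by exon length and library size and no count test was run. Read depth per library is not in the table, so no counting intervals are given and values under about 1 FPKM are coarse. The authors' own tests used DESeq2 1.34.0. How reads of paralogues and strands were assigned is not given in the sources used here.

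Groups were taken from the labels. FPKM of 17162 genes were transformed to log2(FPKM + 0.5), and 12578 genes with a mean of at least 0.5 FPKM were fitted with limma 3.58.1 (R 4.3.3; linear model over all 9 libraries, moderated variance with an intensity trend). P-values were adjusted over all tested genes by the Benjamini-Hochberg method, and a DEG had |log2FC| above 1 and adjusted p under 0.05. Confidence intervals are at 95%. On simulated data of 12578 genes with 200 changed by a log2FC of 2, the fit recovered 96.5% of them in GB vs. CON, with 2 false calls. The simulation counted DEG calls only, so it does not measure smaller changes or calls at an adjusted p alone. The members and gene lists were chosen with earlier results of these data known. Named were the 10 members, DEGs of the related lists (at most 5 a list), the 3 most abundant of the other galectins, cathepsins and cystatins, and the 3 genes most like each member DEG, with other genes marked where they appear. The RefSeq table of ARS-UCD2.0, another assembly than that of the files, matched 10 of 10 members and served only for names and neighbours. Alternatives were the pseudocount, the filter, the scaling, the model, the replicate block and leaving out each library. Figures were drawn with matplotlib 3.10.9 (Python 3.11.15).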

Additional observations from a re-analysis of the deposited data

How the results depend on the processing

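LGALS9, LGALS3BP and CTSS stayed DEGs in GB, against CON or GA, under all 19 alternatives, with log2FC of 5.26 to 6.83, 1.71 to 1.88 and 1.68 to 1.87. The number of the 10 genes at an adjusted p under 0.05 stayed at 8 in GB vs. CON and was 6 to 8 in GB vs. GA. Changed calls of LGALS1, CTSB and the other galectins, cathepsins and cystatins stand beside their values above, and the causes were not tested.

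Values near 0 turned their sign, none of them past the test. In GA vs. CON these were CST3 with median-of-ratios factors (−0.026) and quantile normalization (−0.0069) and CTSK with median-of-ratios factors (−0.0083). In GB vs. GA it was LGALS4 with a pseudocount of 1 (0.0033), scaling to the same sum (0.0053) and median-of-ratios factors (0.020). Leaving out 1 library gave a range across 0 in GA vs. CON for LGALS1 (−0.13 to 0.021), LGALS3 (−0.048 to 0.041), CST3 (−0.013 to 0.082), CTSB (−0.045 to 0.0088), CTSK (−0.0031 to 0.094) and CTSL (−0.019 to 0.29). It did so too in GB vs. CON for CTSL (−0.17 to 0.14), CD74 (−0.025 to 0.31) and LGALS4 (−0.56 to 0.13), and in GB vs. GA for CD74 (−0.019 to 0.40) and LGALS4 (−0.36 to 0.33). Over all genes, the 9 DEGs of GA vs. CON became 2 with a filter at mean FPKM 1, 5 after scaling to the same sum, 5 with the replicate block and 3 to 13 without 1 library. The 57 genes at an adjusted p under 0.05 there became 34 with no filter, 90 with median-of-ratios factors, 13 with no variance trend and 7 to 78 without 1 library.

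Same-numbered libraries did not clearly deviate together (r of −0.031 to 0.077 over 9 pairs, and −0.0678 to 0.0565 over 18 pairs of other numbers). No pairing by number was seen, which cannot show that the dishes were unpaired. With the replicate block, GB vs. CON had 503 DEGs (504 without it) and GB vs. GA 458 (458), and 3 of the 10 genes were DEGs in each. LGALS9 in CON and GA, CTSL and CTSW lie at a few FPKM or less, where the spread between libraries limits the precision. The coefficient of variation of LGALS9 was 29.6% in CON and 60.7% in GA, and that of CTSL was 16.4% to 28.4% within groups. Rounding to 2 decimals is small beside these.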

Other observations

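Some neighbours of the chosen genes were read from the RefSeq table of ARS-UCD2.0. Next to CTSS and CTSK, ARNT was at 22.8 to 26.1 FPKM over the 9 libraries and HORMAD1 at 0 to 0.240. MAPK1IP1L, a neighbour of LGALS3, carries a deposited description of galectin-3 and is not a galectin by its symbol. LGALS8 and CTSS were listed with the same value in a pair of libraries, 34.06 in CON library 1 and 39.32 in GA library 1, and with different values in the other 7.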
